A study of Mus musculus with 12 samples.

Results

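The departure of palbociclib and anti-PD-1 from additivity was measured across 12 of 12 subcutaneous tumors, over the 11187 of 34678 gene symbols whose mean FPKM (fragments scaled to gene length and library size) across the tumors was at least 1. For each gene the interaction was the effect of palbociclib in the presence of anti-PD-1 (anti-PD-1+Palbociclib minus anti-PD-1) minus its effect alone (Palbociclib minus Vehicle), taken between arm means of log2(FPKM + 0.1). An interaction of 0 means that the fold changes of both drugs multiplied in the combination. A negative interaction means that the combination lay below that additive level, and a positive one that it lay above it.

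All tumors were grown under the skin of C57BL/6 mice and are labelled LKB1-deficient lung adenocarcinoma. Per the study's methods the cells were LLC1, a Lewis lung carcinoma line, carrying a short hairpin RNA against Lkb1 (gene symbol Stk11), so the hairpin is shared by all 4 arms. The arms were Vehicle, Palbociclib, anti-PD-1 and anti-PD-1+Palbociclib (the combination), with 3 tumors each. One cell line and one hairpin background limit the model. There was no tumor without the hairpin, and Stk11 lay between 7.90 and 11.5 FPKM in all 12 tumors, which checks no label. Of 14 lung epithelial and adenocarcinoma markers, 5, the defining Nkx2-1 and Sftpc among them, were listed at 0 in every tumor, and only Napsa, Krt8 and Krt18 reached a mean of 1 FPKM.

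Palbociclib inhibits CDK4 and CDK6, the kinases that with D-type cyclins phosphorylate the retinoblastoma protein and release E2F-driven entry into S phase. Antibodies against PD-1 block an inhibitory receptor of activated T cells. Both kinds of drug are known to act on interferon signalling in tumors: type I interferon reaches its target genes at the interferon-stimulated response element, where STAT2 and IRF9 act, while interferon gamma, made by T and NK cells, is the stronger inducer of guanylate-binding proteins and MHC class II.

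Over all genes the interaction was centred on 0. Its median was -0.000645 with quartiles of -0.18 and 0.18, 49.9% of genes lay above additivity and 50.1% below, and the median standard error was 0.22. The 95% interval lay inside -1 to 1 for 75.7% of genes, so that for most genes a departure of more than 2-fold either way was outside the interval. By limma's moderated test with Benjamini-Hochberg adjustment over the 11187 genes, 2 genes (0.0179%) passed an adjusted p of 0.05, Lgals3bp and Ccdc127, both below additivity. At an unadjusted p under 0.05 there were 680 genes (6.08%), of which 384 (3.43%) lay below and 296 (2.65%) above. The p-values measure only the spread between these tumors, 3 per arm.

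The genes below additivity at an unadjusted p under 0.05 shared a shape. In all but 25 of the 384 both single-drug arms lay above vehicle, with medians of 0.35 for palbociclib minus vehicle and 0.33 for anti-PD-1 minus vehicle, and the combination minus vehicle had a median of 0.14. In 371 of the 384 the combination lay below palbociclib alone. The 296 genes above additivity mirrored this: in 278 both single drugs lay below vehicle, with medians of -0.24 for palbociclib and -0.34 for anti-PD-1, and the combination minus vehicle had a median of -0.06. These counts come from the same contrast that chose the genes and describe them only.

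Type I interferon-stimulated genes, the antiviral program that the interferon alpha and beta receptor switches on, lay below additivity as a list. All 53 tested members of a list of 54 lay below additivity, against 50.1% of all genes, and 39 of the 53 had an unadjusted p under 0.05 in that direction, against 3.43% of all genes. None lay above. The median interaction was -1.0, so the combination reached about the level of anti-PD-1 alone: the median of palbociclib minus vehicle was 1.24 and that of the combination minus anti-PD-1 was 0.08. Only Lgals3bp passed the adjusted threshold. Of the 50 genes with the smallest p below additivity, 24 were members of this list, which held 53 of the 11187 genes tested. The list was chosen with earlier results of these data known, so these counts describe it and do not test it.

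The promoters of 6 members are shown because they carry the letters of the interferon-stimulated response element, GAAANNGAAA, searched on both strands in the 250 bases before the start in RefSeq's promoter table (GRCm38.p6). They are the 6 members of smallest interaction p with a match, on the gene's own strand 5′ to 3′, and the capitals mark the matching letters (TTTCNNTTTC where the match is on the opposite strand). In Oas1g 2 matches overlap.
Ifi203, chr1:173942506-173942539, minus strand: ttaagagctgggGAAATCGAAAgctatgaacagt
Oas3, chr5:120777713-120777746, minus strand: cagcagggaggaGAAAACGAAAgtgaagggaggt
Trim30a, chr7:104465208-104465241, minus strand: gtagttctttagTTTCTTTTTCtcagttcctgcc
Oas1g, chr5:120887614-120887643, minus strand: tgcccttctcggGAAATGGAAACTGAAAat
Slfn8, chr11:83020837-83020870, minus strand: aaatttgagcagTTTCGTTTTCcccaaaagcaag
Ifit3b, chr19:34607757-34607824, plus strand: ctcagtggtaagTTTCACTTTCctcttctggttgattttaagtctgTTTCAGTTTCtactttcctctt
The match nearest to the start lay 25 bases from it in Ifi203, 65 in Oas3, 26 in Trim30a, 2 in Oas1g, 38 in Slfn8 and 144 in Ifit3b. Of all 27025 genes with a promoter entry 936 (3.46%) held the letters. Entries were found for 39 of the 53 list members (73.6%), too few for a check over the list, so that check is void. The letters were held by 16 of those 39, a count that is not compared with the share over all genes. Lgals3bp and Oasl2 were in the table without a match, and Oas2 was not in the table. A match is a description of these letters and not of binding.

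Among the secreted and cell-surface products, Lgals3bp, a galectin-binding glycoprotein (chr11:118392751-118402092, minus strand), measured 19.3, 22.7 and 25.7 FPKM with vehicle, 92.2, 64.5 and 85.2 with palbociclib, 48.4, 43.5 and 46.6 with anti-PD-1 and 37.4, 44.6 and 50.4 with the combination. All 3 palbociclib tumors lay above the other 9, and the combination tumors overlapped those given anti-PD-1 alone. Adding both drugs would have given 164 FPKM, 3.73 times the observed geometric mean of 43.8. The interaction was -1.90 ± 0.22 (SE, n = 3 tumors per arm, limma adjusted p = 0.0304), and it lay between -2.05 and -1.79 when each tumor was left out, while the adjusted p stayed under the threshold in 1 of those 12 fits (without palbociclib replicate 2). Bst2, which tethers budding virus to the cell surface, had an interaction of -0.40 ± 0.22 and Ifitm3, a blocker of viral entry, one of -0.51 ± 0.23.

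The OAS enzymes sense double-stranded RNA and make the 2′,5′-oligoadenylates that activate RNase L. Oas2 measured 4.83, 5.501 and 7.81 FPKM with vehicle, 20.2, 12.05 and 18.6 with palbociclib, 9.89, 9.74 and 11.4 with anti-PD-1 and 3.99, 8.91 and 5.43 with the combination. Here the effect of palbociclib ran opposite ways without and with anti-PD-1. Every palbociclib tumor was above every vehicle tumor, and every combination tumor was below every anti-PD-1 tumor. Each drug alone raised the arm mean over vehicle, by 1.47 for palbociclib and 0.79 for anti-PD-1 on the log2 scale. Such a reversal without overlap, in either direction, was seen in 56 genes (0.501%). The interaction of Oas2 was -2.29 ± 0.40 (limma adjusted p = 0.398).

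Oasl2, an OAS-like protein, showed the same order with less reversal. It measured 6.54, 6.88 and 9.02 FPKM with vehicle, 24.4, 14.8 and 25.5 with palbociclib, 11.1, 10.9 and 10.5 with anti-PD-1 and 9.75, 10.8 and 11.6 with the combination. The anti-PD-1 tumors lay within the range of the combination tumors and all palbociclib tumors were higher, and the interaction was -1.5 ± 0.27 (limma adjusted p = 0.401). Oas3 had an interaction of -1.99 ± 0.42, Oas1g -1.47 ± 0.37, Oas1b -1.14 ± 0.29, Oas1a -1.12 ± 0.31 and Oasl1 -0.91 ± 0.36. Oas1a and Oas1g are near-identical copies whose reads may have been shared between them.

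Ifi203 encodes a nuclear protein of the interferon-inducible p200 family. It measured 5.80, 4.80 and 8.10 FPKM with vehicle, 16.0, 11.96 and 17.7 with palbociclib, 7.79, 7.28 and 7.88 with anti-PD-1 and 6.70, 6.92 and 7.86 with the combination. The palbociclib tumors stood above the other 9 and the other arms overlapped one another. Its interaction was -1.39 ± 0.26 (limma adjusted p = 0.491), that of the related Ifi204 was -1.0 ± 0.28, and that of Sp100, a nuclear body protein, was -1.06 ± 0.22. All 3 palbociclib tumors lay above the other 9 in 26 of the 53 list members, against 1.27% of all genes.

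The IFIT proteins, which bind viral RNA, had interactions of -1.44 ± 0.45 for Ifit1, -0.77 ± 0.28 for Ifit2, -1.82 ± 0.51 for Ifit3 and -2.06 ± 0.56 for Ifit3b, the last pair being close copies. Ifit3 measured 16.9, 13.98 and 16.9 FPKM with vehicle, 58.8, 34.0 and 110 with palbociclib, 29.7, 30.1 and 17.9 with anti-PD-1 and 21.1, 31.4 and 29.9 with the combination. The spread within the palbociclib arm was wide, and its lowest tumor, replicate 2, was still above the other 9. Of the other antiviral effectors, Rsad2, which makes a chain-terminating nucleotide, had an interaction of -1.64 ± 0.50, its genomic neighbour Cmpk2 -1.67 ± 0.40, and the GTPase Mx1 -1.68 ± 0.52.

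Feedback and amplification genes of the pathway lay on the same side. Usp18 removes ISG15 from proteins and restrains the type I receptor. It measured 4.66, 4.80 and 6.47 FPKM with vehicle, 17.3, 8.17 and 24.9 with palbociclib, 8.41, 7.77 and 6.58 with anti-PD-1 and 4.06, 7.84 and 7.45 with the combination. Palbociclib replicate 2 lay just under anti-PD-1 replicate 1, the palbociclib tumors otherwise being highest, and the interaction was -1.80 ± 0.51. Irf7, the transcription factor that amplifies interferon production, measured 7.29, 7.39 and 7.26 FPKM with vehicle, 26.6, 12.8 and 29.9 with palbociclib, 14.03, 9.25 and 8.34 with anti-PD-1 and 9.02, 11.7 and 12.3 with the combination. Its interaction was -1.47 ± 0.41.

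Among the receptor-proximal transcription factors the estimates were smaller. Irf9 had an interaction of -0.72 ± 0.21 and Stat2 one of -0.64 ± 0.22, both with an unadjusted p under 0.05. Epsti1 (-0.47 ± 0.60), Phf11b (-0.83 ± 0.75) and Zbp1 (-0.92 ± 0.59) had a combination minus anti-PD-1 difference near or above 1.

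**Figure D1:**
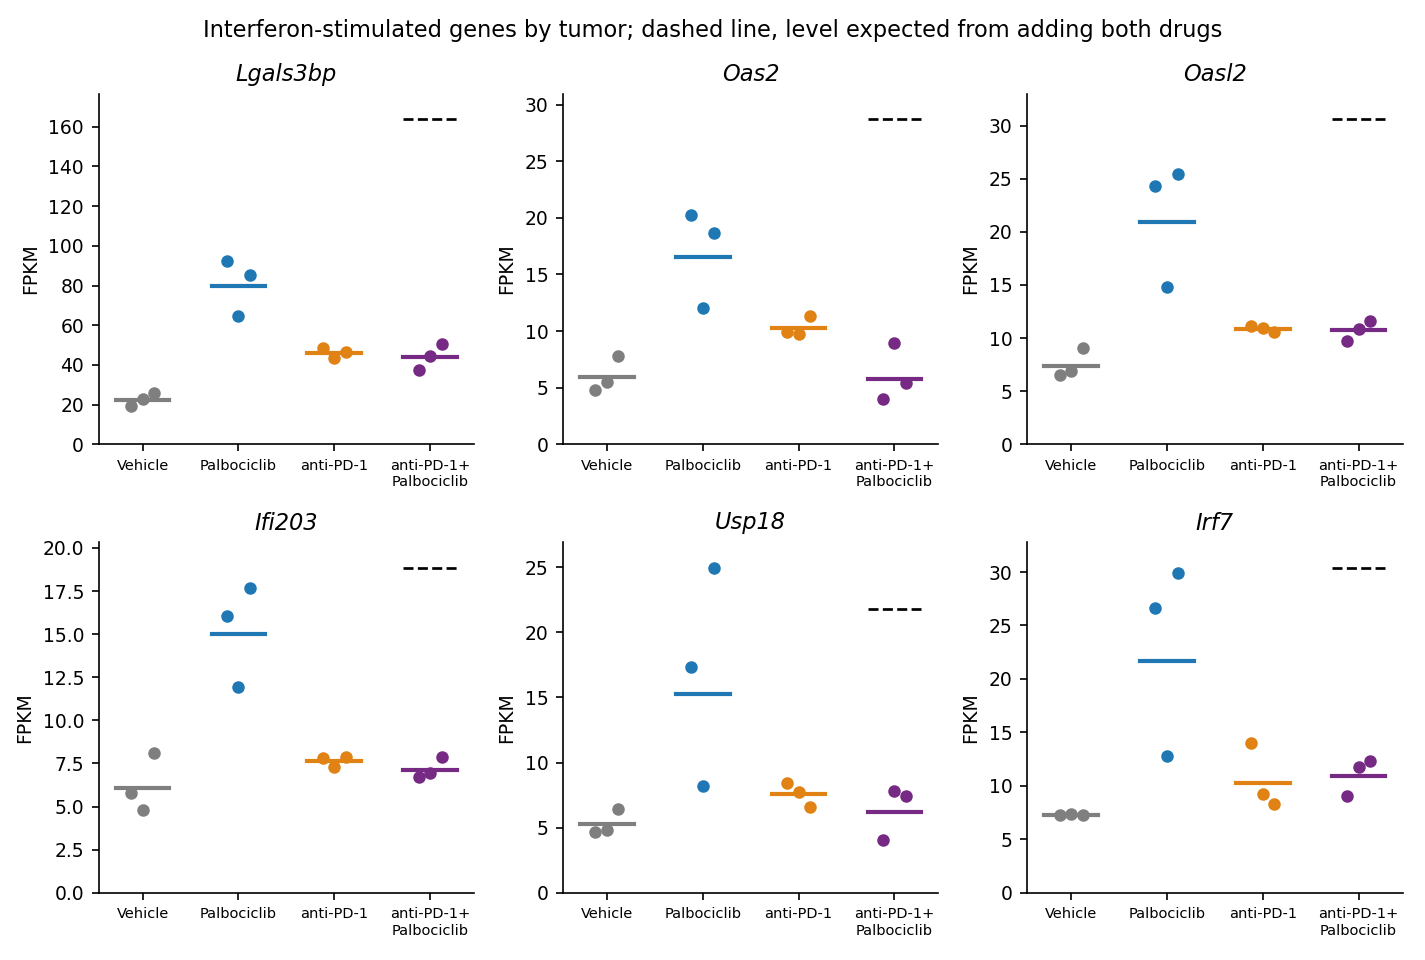
FPKM (vertical axis, from 0) of Lgals3bp, Oas2, Oasl2, Ifi203, Usp18 and Irf7 in each tumor (points, replicates 1 to 3 from left to right) of the 4 arms, with the geometric mean of each arm (solid line) and the level expected in the combination if both drugs added on the log scale (dashed line). In all 6 genes the 3 combination tumors lay far under the dashed line and near or below the anti-PD-1 tumors, for example at 37.4 to 50.4 FPKM against an expected 164 for Lgals3bp.

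Sensors of foreign or misplaced nucleic acid formed a list of 20, of which 19 reached a mean of 1 FPKM. Of these, 16 lay below additivity (50.1% of all genes did) and 3 above, and 7 had an unadjusted p under 0.05 below (3.43% of all genes) and none above. The median interaction was -0.37, from -0.52 to -0.16 (without anti-PD-1 replicate 1) with each tumor left out. Ifih1 (MDA5) had an interaction of -1.05 ± 0.26, Ddx58 (RIG-I) one of -1.16 ± 0.30 and Tlr3 one of -0.69 ± 0.22. All 3 are RNA sensors that interferon itself induces. On the DNA side Mb21d1 (cGAS) lay at -0.69 ± 0.29 and Trex1, an exonuclease that clears cytosolic DNA, at -1.63 ± 0.68, while the adaptor Tmem173 (STING) lay at -0.20 ± 0.23 and the inflammasome sensor Aim2, the highest of the list, at 0.30 ± 0.24.

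Of these sensors, Ifih1 measured 1.34, 1.38 and 1.26 FPKM with vehicle, 3.67, 3.14 and 4.13 with palbociclib, 2.33, 1.44 and 1.58 with anti-PD-1 and 2.42, 1.90 and 2.38 with the combination. The palbociclib tumors again lay above the other 9. The interferon genes themselves were barely detected: of 20 type I and III interferon genes 10 were listed at 0 in every tumor and the highest value of any in a tumor was 0.33 FPKM, for Ifna4. Ifnar1 and Ifnar2, the receptor chains, lay at 7.86 to 11.5 and 6.64 to 9.88 FPKM.

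Genes that respond mainly to interferon gamma had estimates nearer to 0, a difference between lists that was not tested. Guanylate-binding proteins and immunity-related GTPases, which attack intracellular pathogens, had 14 of 17 members below additivity (50.1% of all genes did). Their median interaction was -0.35, against a median palbociclib minus vehicle of 1.77 and a combination minus anti-PD-1 of 1.42. Gbp9 was the member with an unadjusted p under 0.05 (3.43% of all genes had one below additivity), at -0.83 ± 0.34. Gbp2 measured 43.8, 17.9 and 31.1 FPKM with vehicle, 91.7, 107 and 114 with palbociclib, 35.0, 26.5 and 24.1 with anti-PD-1 and 135, 41.2 and 149 with the combination. Combination replicates 1 and 3 were above every palbociclib tumor and replicate 2 was within the vehicle range. Leaving out combination replicate 2 turned the list median to 0.24, and leaving out combination replicate 1 gave -0.66.

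MHC class I and peptide loading, the route by which antigens reach CD8 T cells, had no single departure. Of 23 members 17 lay below (50.1% of all genes did) and 6 above, none had an unadjusted p under 0.05, and the median was -0.16, with palbociclib minus vehicle at 0.76 and the combination minus anti-PD-1 at 0.62. The 95% interval lay inside -1 to 1 for 14 of the 23, a smaller share than the 75.7% of all genes. B2m, the light chain, had an interaction of 0.07 with limits of -0.64 and 0.77. Without combination replicate 2 the list median was 0.10.

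MHC class II, which presents antigens to CD4 T cells, was the list furthest above 0 among the immune lists. Of 8 members tested 7 lay above additivity (49.9% of all genes did), with a median of 0.51, yet none had an unadjusted p under 0.05. H2-Aa measured 48.5, 7.16 and 3.41 FPKM with vehicle, 27.8, 80.9 and 76.8 with palbociclib, 9.60, 3.32 and 2.99 with anti-PD-1 and 164, 13.1 and 107 with the combination. The spread within arms exceeded 10-fold in the vehicle and combination arms, and the interaction was 1.33 ± 1.5. The list median ran from -0.18 without vehicle replicate 1 to 1.42 without combination replicate 2.

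**Figure D2:**
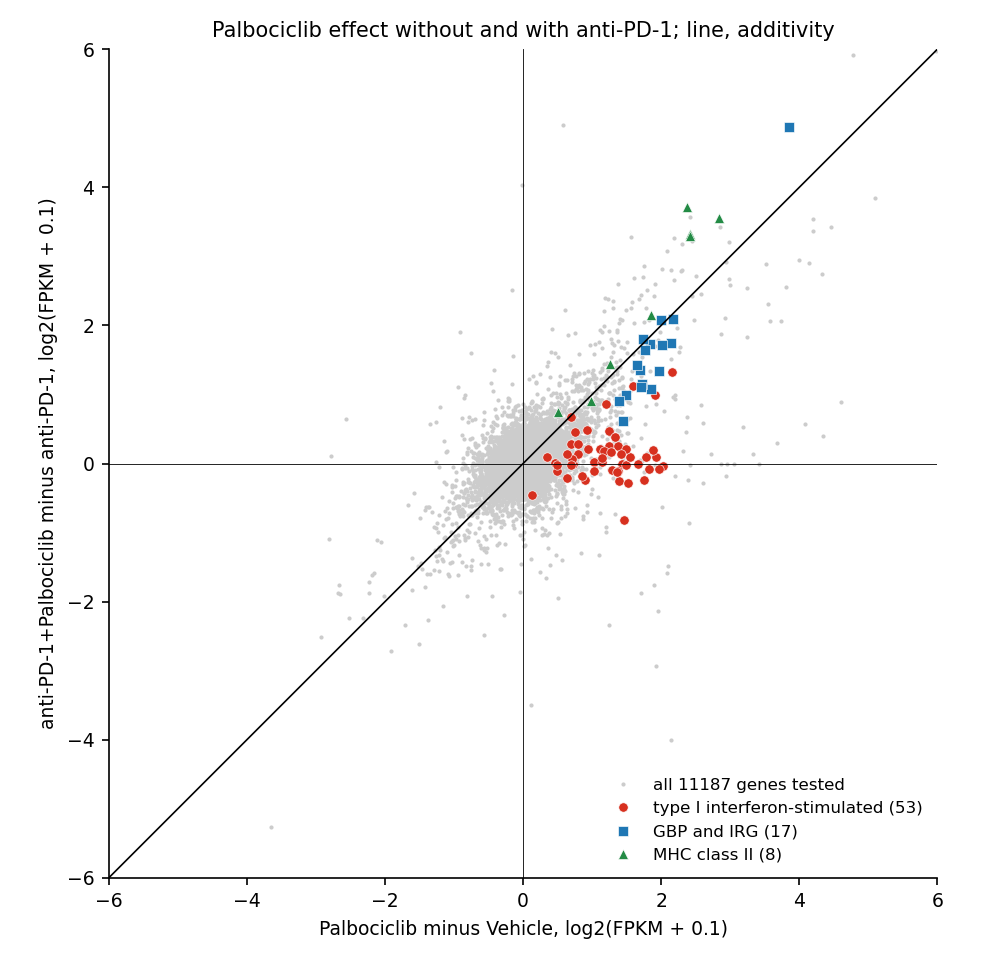
Effect of palbociclib with anti-PD-1 present (vertical axis) against its effect alone (horizontal axis), both as differences of arm means of log2(FPKM + 0.1), for all 11187 genes, with 3 gene lists coloured and the line of additivity (1 gene lies outside the plotted range). Type I interferon-stimulated genes lie along the horizontal axis under the line, with medians of 1.24 and 0.08. Guanylate-binding and MHC class II genes had median interactions nearer to the line, at -0.35 (below it) and 0.51 (above it).

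**Figure D3:**
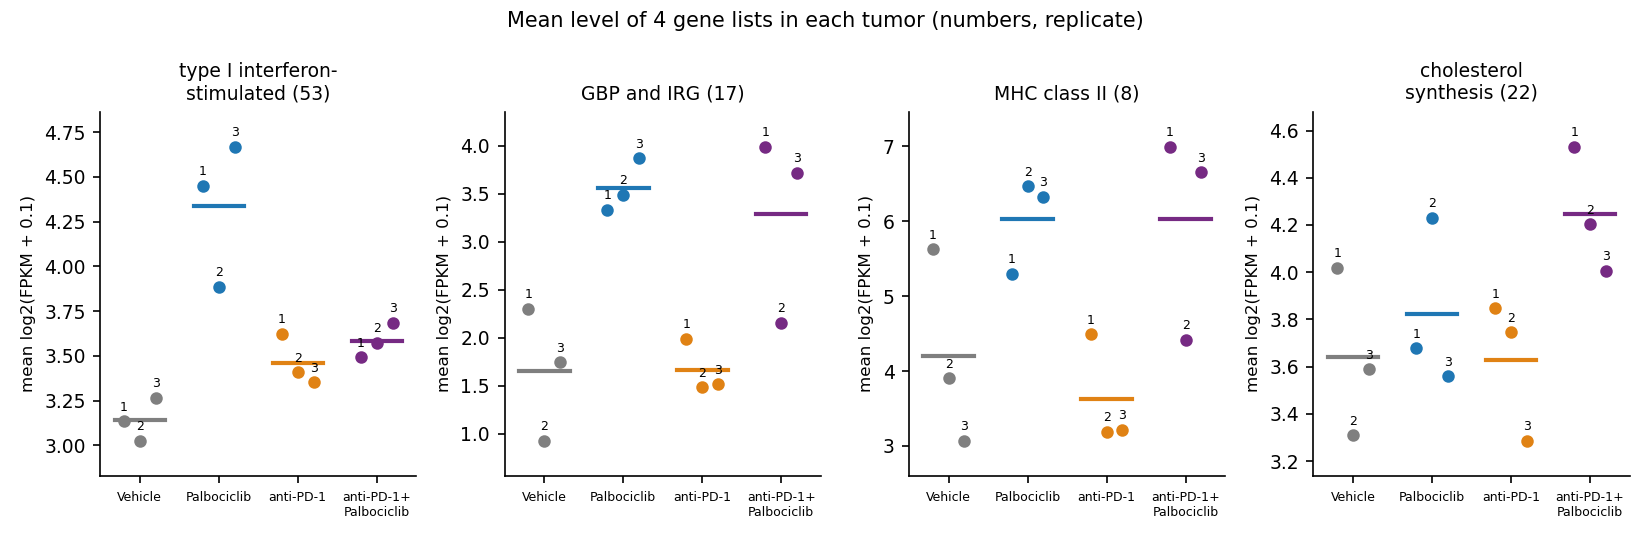
Mean log2(FPKM + 0.1) of 4 gene lists in each tumor (points, numbered by replicate, with the mean of each arm as a line). The 53 type I interferon-stimulated genes lie between 3.49 and 3.69 in the combination against 3.89 to 4.67 with palbociclib, whereas guanylate-binding and MHC class II genes split the combination arm, with replicates 1 and 3 high and replicate 2 low.

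On the same per-tumor scale the type I list averaged 3.14, 3.03 and 3.27 with vehicle, 4.45, 3.89 and 4.67 with palbociclib, 3.62, 3.41 and 3.35 with anti-PD-1 and 3.49, 3.57 and 3.69 with the combination. The arms given palbociclib with and without the antibody did not overlap. Palbociclib replicate 2, the lowest of its arm, was the tumor in which 28 skin and keratin genes summed to 613 FPKM against 2.74 to 8.49 elsewhere. Leaving that tumor out gave a list median of -1.22, and the list's direction was the same with each of the 12 tumors left out (medians of -1.22 to -0.88). In bulk tissue fewer cells of a type and less RNA per cell cannot be told apart. The pan-leukocyte list had a median interaction of -0.01 over 10 genes, from -0.22 to 0.32 with each tumor left out. The part of cell composition in the type I departure was not tested.

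Chemokines and immune cell markers gave few single departures. Cxcl10, a T cell attractant that type I interferon also induces, measured 9.23, 7.87 and 9.87 FPKM with vehicle, 29.9, 18.9 and 45.8 with palbociclib, 16.2, 16.8 and 10.2 with anti-PD-1 and 17.2, 14.003 and 24.97 with the combination. Palbociclib and combination tumors overlapped, and the interaction was -1.34 ± 0.44 (limma adjusted p = 0.776). Cxcl9, the interferon gamma-dependent partner, had one of 0.78 ± 1.36 with limits of -2.22 and 3.78. For T cell receptor components the median of 6 genes was 0.02 and for cytotoxic and NK genes that of 8 was -0.35 (-0.66 without combination replicate 3 and -0.004 without combination replicate 2), with no member at an unadjusted p under 0.05.

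Lgals9, a galectin that binds the checkpoint receptor TIM-3, was the checkpoint gene with an unadjusted p under 0.05 (3.43% of all genes below additivity). It measured 19.5, 21.4 and 18.8 FPKM with vehicle, 41.1, 34.6 and 55.8 with palbociclib, 38.3, 23.2 and 24.0 with anti-PD-1 and 21.9, 26.3 and 27.0 with the combination. The combination tumors lay between the vehicle and the palbociclib arm, and the interaction was -1.26 ± 0.29 (limma adjusted p = 0.732). Cd274, encoding PD-L1, had an interaction of -0.05 with limits of -0.93 and 0.83, and Pdcd1, encoding PD-1 itself, one of -0.33 with limits of -2.10 and 1.44. The checkpoint list of 13 had a median of -0.33, which was -0.02 without combination replicate 2.

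Ly6c2, a surface antigen of inflammatory monocytes, had an interaction of -2.12 ± 0.58. It measured 1.04, 0.43 and 1.01 FPKM with vehicle, 4.89, 3.61 and 4.29 with palbociclib, 4.01, 1.28 and 1.51 with anti-PD-1 and 2.38, 1.76 and 2.80 with the combination. The other 20 macrophage and monocyte genes had no unadjusted p under 0.05 (3.43% of all genes had one below additivity). The median over all 21 was 0.01. Hsh2d, an adaptor of haematopoietic cells, had an interaction of -1.31 ± 0.30, with palbociclib tumors at 1.84 to 2.20 FPKM and the other 9 at 0.71 to 1.06.

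Adhesion genes, including the ligand of the study's interest, showed no departure for that ligand. Icam1, which holds leukocytes through LFA-1, measured 4.68, 2.68 and 2.06 FPKM with vehicle, 4.10, 8.39 and 6.44 with palbociclib, 4.13, 1.40 and 1.91 with anti-PD-1 and 9.36, 2.52 and 8.55 with the combination. Its interaction was 0.35 ± 0.75 with 95% limits of -1.31 and 2.0, an interval wide enough to hold a 2-fold departure in either direction. Of 14 adhesion genes 10 lay below additivity (50.1% of all genes did) with a median of -0.43, which was -0.08 without combination replicate 2. Cd44, the hyaluronan receptor, had an interaction of -0.52 ± 0.20 and F11r, a tight junction molecule, one of -1.55 ± 0.46.

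The cell cycle lists, the direct field of the drug, had medians near additivity. Palbociclib minus vehicle was above 0 in all 38 DNA replication genes (median 0.33) and all 40 mitotic genes (median 0.37). The medians of combination minus anti-PD-1 were 0.18 and 0.25. Below additivity lay 25 of the 38 and 28 of the 40, against 50.1% of all genes. All 3 combination tumors lay above the other 9 in 6 of the 38 and 1 of the 40, against 1.1% of all genes. For 38 DNA replication genes the median was -0.11 and the 95% interval lay inside -1 to 1 for 35 of them, against 75.7% of all genes. For 40 mitotic genes the median was -0.12 with 32 inside those limits. For 23 genes of the cyclin D, CDK4/6, RB and E2F axis it was -0.08 with 15 inside, a smaller share than the 75.7% of all genes. An unadjusted p under 0.05 below additivity was found for 2 of the 38, 1 of the 40 and 1 of the 23. Over all genes the share was 3.43%. These members were Pold1, Slbp and Espl1, at -0.34, -0.65 and -0.60, and Ccnd1.

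Ccnd1, encoding cyclin D1, the partner of the drug's target, measured 69.6, 35.3 and 61.4 FPKM with vehicle, 95.4, 101 and 93.7 with palbociclib, 85.2, 72.8 and 64.5 with anti-PD-1 and 82.7, 80.4 and 88.3 with the combination. The palbociclib tumors lay above the other 9 and the interaction was -0.68 ± 0.29 (limma adjusted p = 0.805). Cdk4 had an interaction of -0.07 with limits of -0.43 and 0.30, Cdk6 one of -0.06 with limits of -1.47 and 1.35 and Rb1 one of 0.56 with limits of -0.01 and 1.14. Cdkn2d, an inhibitor of CDK4 and CDK6, lay above additivity at 0.58 ± 0.22.

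Targets and feedback inhibitors of RAS-MAPK signalling, which drives Ccnd1, lay on both sides. Of 22 members 11 lay above and 11 below, and the 4 with an unadjusted p under 0.05 were all below, against 3.43% of all genes. Besides Ccnd1 they were Dusp5, a nuclear ERK phosphatase (-0.84 ± 0.27), the receptor kinase Epha2 (-0.56 ± 0.24) and Dusp6, the cytoplasmic ERK phosphatase (-0.39 ± 0.17). Dusp6 measured 45.4, 50.3 and 47.6 FPKM with vehicle, 47.8, 50.8 and 44.7 with palbociclib, 45.8, 48.8 and 54.4 with anti-PD-1 and 39.3, 31.9 and 43.2 with the combination. All 3 combination tumors lay below the other 9, as in 1.37% of all genes.

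Cholesterol synthesis was the metabolic list furthest above additivity. Of 22 members tested 20 lay above, against 49.9% of all genes, with a median interaction of 0.45, a median palbociclib minus vehicle of 0.13 and a median combination minus anti-PD-1 of 0.67. Only Srebf2, the master transcription factor of the pathway, had an unadjusted p under 0.05 (2.65% of all genes had one above additivity). It measured 51.7, 40.3 and 44.5 FPKM with vehicle, 38.0, 46.3 and 33.5 with palbociclib, 32.8, 46.3 and 32.9 with anti-PD-1 and 51.0, 54.2 and 47.9 with the combination. Combination tumors lay above the single-drug tumors but overlapped vehicle, and the interaction was 0.69 ± 0.23 (limma adjusted p = 0.776).

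Some enzymes of that pathway, above the list median of 0.45, had estimates similar to that of Srebf2 with wider errors. Hmgcs1, an early step, had an interaction of 0.74 ± 0.37, and Sqle, which makes squalene epoxide, one of 0.57 ± 0.35. Nsdhl, the highest of the list, was at 0.85 ± 0.41 and Mvd at 0.74 ± 0.36. Ebp, a sterol isomerase, was among the 2 members below 0, at -0.27. The list median stayed above 0 with each tumor left out, from 0.27 without anti-PD-1 replicate 3 to 0.71 without palbociclib replicate 2.

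**Figure D4:**
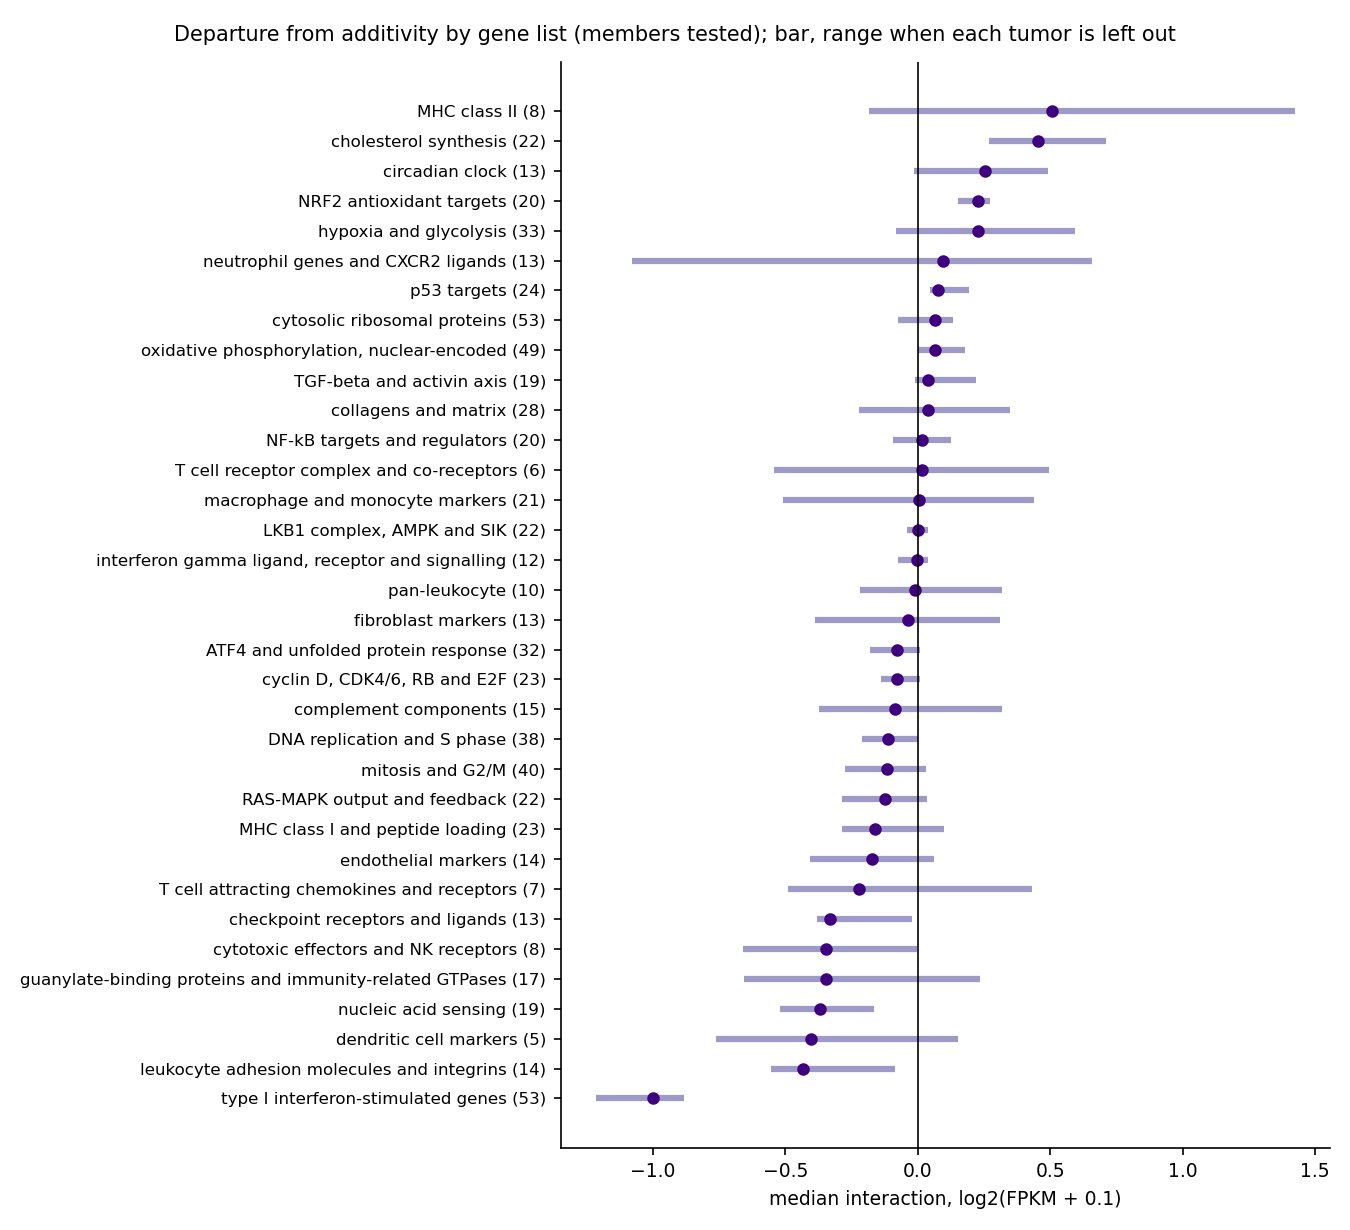
Median interaction on the log2(FPKM + 0.1) scale (points) of each gene list with at least 5 members tested, other than skin, muscle, adipocyte and blood genes, with the number tested in brackets, and the range of the median when each of the 12 tumors was left out (bars). Type I interferon-stimulated genes sit at -1.0 with a bar from -1.22 to -0.88, the lowest median of the lists shown, the bar of neutrophil genes reaching down to -1.08, and cholesterol synthesis sits at 0.45 with a bar that stays above 0.

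Other metabolic and stress lists had medians nearer to 0, beside 49.9% of all genes above additivity. NRF2 antioxidant targets had a median of 0.23 with 15 of 20 above, hypoxia and glycolysis genes 0.23 with 27 of 33 above, and nuclear-encoded oxidative phosphorylation genes 0.06 with 36 of 49 above. Among these lists Cox6c, a subunit of cytochrome c oxidase, was the gene with an unadjusted p under 0.05, at 0.51 ± 0.22. Of all genes 2.65% had such a p above additivity. The hypoxia median turned to -0.08 without anti-PD-1 replicate 1. Ribosomal protein genes had a median of 0.07, with Rpl30 at 0.46 ± 0.15 and Rpl27 at -0.49 ± 0.20, and the ATF4 and unfolded protein list had one of -0.08 with the chaperone Pdia4 at -0.53 ± 0.20.

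Signalling, stromal and blood lists were close to 0 or rested on few genes. The median was -0.002 for 12 genes of interferon gamma signalling, 0.02 for 20 NF-kB targets, 0.04 for 19 TGF-beta and activin genes and 0.001 for 22 genes of the LKB1 complex, AMPK and SIK, the axis that the hairpin targets. It was 0.04 for 28 collagens and matrix genes, -0.04 for 13 fibroblast and -0.17 for 14 endothelial markers. Complement (15 genes) had a median of -0.08 and neutrophil genes (13) one of 0.10, the latter running from -1.08 to 0.66 with each tumor left out. Dendritic cell markers (-0.40 over 5 genes), T cell attractants (-0.22 over 7), erythroid genes (-0.63 over 5) and B cell markers (0.37 over 2) were measured by few members. With single tumors left out these ran from -0.76 to 0.15, -0.49 to 0.43, -1.62 to 0.61 and -0.14 to 0.69. Of all 40 lists 28 had a median that changed sign when some tumor was left out, and 12 kept theirs in all 12 fits.

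Some circadian and p53 genes lay above additivity. Tef, a clock-controlled bZIP factor, measured 3.40, 5.10 and 3.06 FPKM with vehicle, 1.92, 1.11 and 1.60 with palbociclib, 0.82, 1.53 and 1.498 with anti-PD-1 and 1.29, 1.26 and 1.23 with the combination. Its 3 vehicle tumors lay above the other 9, as in 1.65% of all genes, so that either drug alone and both together reached a like level and the interaction was 1.29 ± 0.39. Nr1d2, the clock repressor REV-ERB beta, was also highest in the 3 vehicle tumors, with an interaction of 0.50 ± 0.19. Of the p53 targets Zmat3, also highest in the 3 vehicle tumors, lay at 0.65 ± 0.17, Rrm2b at 0.42 ± 0.17 and Aen at -0.50 ± 0.19. The p53 list had 13 of 24 above, near the 49.9% of all genes, and a median of 0.08. Of the 13 clock genes 10 lay above, with a median of 0.25, which became -0.01 without vehicle replicate 2.

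Ccdc127, a coiled-coil protein with a location on chr13:74350309-74365783 (plus strand), was the other gene past the adjusted threshold, and its pattern differed from that of the interferon genes. It measured 7.21, 6.07 and 5.95 FPKM with vehicle, 7.04, 6.299 and 6.29 with palbociclib, 6.50, 5.96 and 6.50 with anti-PD-1 and 2.95, 2.54 and 2.71 with the combination. On the log2 scale palbociclib differed from vehicle by 0.03 and anti-PD-1 by -0.02, and all 3 combination tumors lay below the other 9. The interaction was -1.21 ± 0.15 (limma adjusted p = 0.0304), between -1.30 and -1.16 with each tumor left out, and the adjusted p stayed under the threshold in 1 of those 12 fits (without vehicle replicate 1). Its annotation adjoins Sdha, a subunit of succinate dehydrogenase, which lay at 55.9 to 73.1 FPKM in all tumors. The pseudogene Pisd-ps1 had a like pattern, with combination tumors at 8.10, 9.99 and 8.73 FPKM against 12.2 to 15.6 in the other 9, and an interaction of -0.66 ± 0.15. Its reads may be shared with its parent gene.

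The 10 named genes above additivity with the smallest p all had lower arm means under each single drug than under vehicle. Dkk2, a secreted Wnt antagonist, measured 4.62, 2.96 and 5.18 FPKM with vehicle, 2.21, 2.07 and 3.08 with palbociclib, 1.37, 3.04 and 2.77 with anti-PD-1 and 10.6, 5.36 and 6.25 with the combination. Its 3 combination tumors lay above the other 9, as in 1.1% of all genes, and the interaction was 2.36 ± 0.48 (limma adjusted p = 0.548). Gng2, a G protein gamma subunit, lay at 5.64 to 7.46 FPKM with anti-PD-1 and 10.3 to 11.3 with the combination, against 8.29 to 12.1 with vehicle, for an interaction of 1.03 ± 0.21. Nudt14, a hydrolase of UDP-glucose, had one of 1.05 ± 0.22.

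The remaining genes named by smallest p above additivity were Sgtb (0.99 ± 0.23), a co-chaperone, Yy2 (1.80 ± 0.43), a zinc finger factor related to YY1, Lrrn3 (1.77 ± 0.46), Tmem65 (0.60 ± 0.15), a mitochondrial membrane protein, Gatsl2 (0.57 ± 0.14), Cops2 (0.57 ± 0.14), a COP9 signalosome subunit, and Trove2 (0.54 ± 0.13), which encodes the Ro60 RNA-binding protein. Their limma adjusted p was 0.732 in every case. In Sgtb, Yy2, Cops2 and Trove2 palbociclib tumors all lay below vehicle tumors and combination tumors all above anti-PD-1 tumors. For Cops2 the arms ran at 41.7 to 51.5, 33.2 to 37.4, 34.4 to 35.4 and 36.7 to 41.9 FPKM.

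Several genes below additivity, a simple epithelial keratin among them, were highest in anti-PD-1 replicate 1. Il24, a cytokine of the IL-10 family, had an interaction of -4.09 ± 1.06, Col18a1, a basement membrane collagen, one of -1.95 ± 0.55 and Krt8, a simple epithelial keratin, one of -1.13 ± 0.46. Krt8 lay at 276 FPKM in anti-PD-1 replicate 1 and at 62.0 to 152 in the other 11 tumors, and without that replicate its interaction was -0.75.

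**Figure D5:**
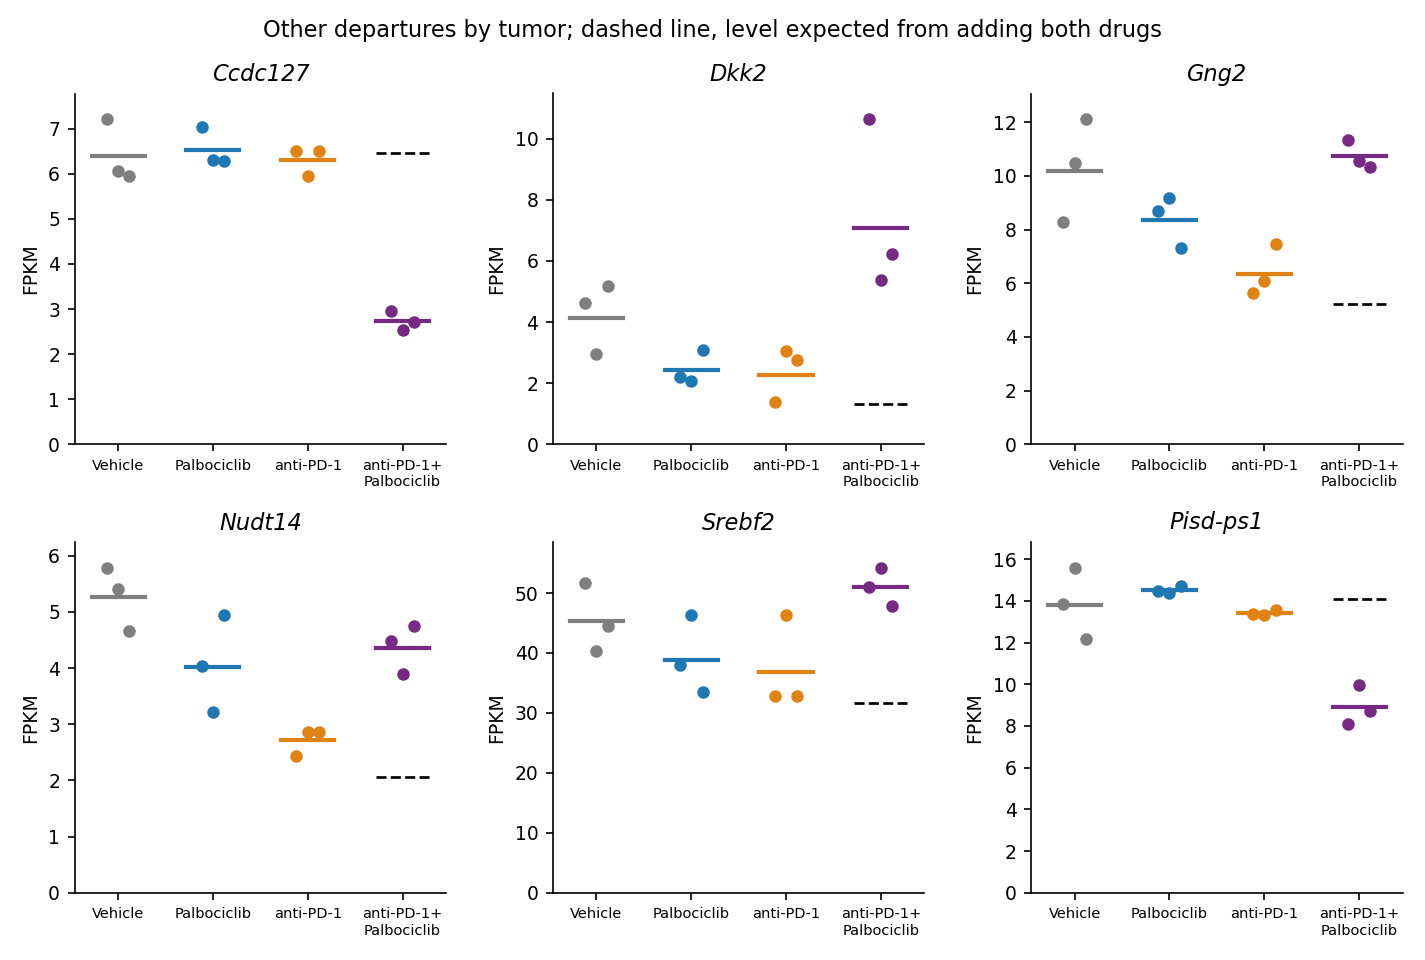
FPKM (vertical axis, from 0) of Ccdc127, Dkk2, Gng2, Nudt14, Srebf2 and Pisd-ps1 in each tumor (points) of the 4 arms, with the geometric mean of each arm (solid line) and the additive expectation for the combination (dashed line). Ccdc127 is low in the combination alone, at 2.54 to 2.95 FPKM, Pisd-ps1 is lowest there too, at 8.10 to 9.99 FPKM, and Dkk2, Gng2, Nudt14 and Srebf2 lie above the dashed line.

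Among the largest interactions in size were genes with extreme values in 1 to 3 tumors. Of the 262 genes beyond 1 in size, 181 lay below and 81 above, 113 had an unadjusted p under 0.05, and of the 50 largest 19 did. For mt-Nd4 the value of 4.32 ± 3.67 came from anti-PD-1 replicate 1, where it was listed at 0 while the adjoining mt-Nd4l stood at 1323 FPKM and at 10.5 or less in the other 11 tumors. Rhog (2.81 ± 1.71) was at 3.19 and 1.31 FPKM in palbociclib replicate 3 and anti-PD-1 replicate 2 and at 28.6 to 50.4 elsewhere. Ubb (1.91 ± 0.80) was likewise low in 3 single-drug tumors. The pseudogene Cd63-ps (-6.14 ± 2.49) was at 89.9 to 125 FPKM in 3 single-drug tumors and at 0.87 to 2.61 in the rest, while Cd63 lay between 440 and 592 in all. The T cell receptor segment Trbd1 (-3.64 ± 2.32) was listed at 0 in vehicle replicate 3 and combination replicate 2 and at 4.35 to 5.60 FPKM elsewhere, and Sprr2k, a cornified envelope protein, had an interaction of 2.06 ± 0.78. Genes of this kind may share reads with copies or neighbours, and their values are uncertain.

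Genes of neighbouring tissues were high in single tumors. Krt14 (-3.72 ± 2.92) was at 178 FPKM in palbociclib replicate 2 and at 0.53 or less elsewhere, and the median of 11 skin genes went from -2.63 to -0.35 without that tumor. Skeletal muscle genes summed to 335 FPKM in palbociclib replicate 3 and 310 in combination replicate 2, against 54.4 to 145 in the others, and adipocyte genes to 927 in palbociclib replicate 1 and 2596 in combination replicate 1, against 108 to 174. The median interaction was 0.55 for 15 muscle genes, from -0.69 without combination replicate 2 to 2.12 without palbociclib replicate 3. It was -0.004 for 18 adipocyte genes, from -1.82 without combination replicate 1 to 0.87 without combination replicate 3, and -1.13 for the 3 lung markers tested. With mean levels of the skin, muscle and adipocyte lists as covariates the type I median was -1.26 and the cholesterol median 0.83. The part of admixed tissue in the other departures was not tested.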

How the data were processed

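Total RNA of 12 subcutaneous tumors was sequenced on an Illumina platform, and the authors deposited 1 table of FPKM per tumor. The submitters' processing notes name HISAT2 and the mouse build mm10 (GRCm38). The counting tool and annotation are not given in the sources used here. Counts were not used here, and the spacing of low values put the libraries at about 14900000 to 20300000 fragments, an estimate. Repeats of a symbol (67 of 34745 entries) were dropped, which left 34678 symbols, and those averaging 1 FPKM or more over the tumors were tested. limma 3.58.1 (R 4.3.3; eBayes with a trend) was fitted to log2(FPKM + 0.1) over 4 arm means, and p-values were adjusted by Benjamini-Hochberg over all genes tested. A fold change on this scale understates that of low genes. The fit was checked on simulated data. The text names the 10 genes of smallest p and the 5 of largest size per direction (numbered gene models excluded), 10 genes of the drugs' axis, and up to 3 per list with an unadjusted p under 0.05, with other list members given as examples chosen after their values were seen. The members and the 40 lists were chosen with earlier results of these data known. The lists were described by counts and medians without a test. Replicate numbers were not used as a pairing in the reported fit. Alternatives were other pseudocounts, filters and scalings, a linear scale, a replicate block, covariates and leaving out each tumor. Some single genes that the naming rule or the lists include are not reported here, and they stayed in every fit, count and median.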

Additional observations from a re-analysis of the deposited data

Results flagged for a closer look

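The following genes had a palbociclib effect that differed with and without anti-PD-1. In Lgals3bp (-1.90) and Ccdc127 (-1.21) the difference itself passed limma's adjusted test over all genes. In 5 others every palbociclib tumor differed from every vehicle tumor in one direction and every combination tumor from every anti-PD-1 tumor in the other: Oas2 (-2.29), with palbociclib above vehicle, and Yy2 (1.80), Sgtb (0.99), Cops2 (0.57) and Trove2 (0.54), with palbociclib below vehicle. For these 5 the difference did not pass the adjusted test, and they are among 56 genes (0.501%) with such a pattern.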

How the results depend on the processing

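The count of 2 genes past the adjusted threshold was 0 with a filter at 0.1 FPKM, on the linear scale and with the replicate block. It was 4 with muscle, adipocyte and skin covariates, 7 without a filter and 0 to 2 with each tumor left out. Lgals3bp and Oasl2 were called without palbociclib replicate 2 and Ccdc127 without vehicle replicate 1. With the covariates the genes called were Cmpk2, Lgals3bp, Oasl2 and Usp18. Without palbociclib and combination replicates 2 together (chosen after seeing the data) they were Lgals3bp and Oas2. Ccdc127 was not called in either of these settings. The cause was not tested. Without a filter, which adds genes, 464 genes lay above and 692 below additivity at an unadjusted p under 0.05, and leaving out each tumor gave 188 to 406 above and 244 to 542 below, with the lowest counts without combination replicate 1. The replicate block gave 288 above and 371 below. The smallest adjusted p with the block was 0.0505. Of 18 same-numbered pairs of tumors 8 had deviations correlated above 0.1, all 3 of anti-PD-1 with vehicle (0.16 to 0.52) but none of palbociclib with vehicle or with anti-PD-1 (-0.26 to -0.01), so the numbers were not taken as a pairing over the 4 arms. The 53 type I genes had 52 or 53 members below additivity and 33 to 43 with an unadjusted p under 0.05 in every setting run.

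Interactions near 0 changed sign. That of Cd274 was 0.013 with the covariates and 0.37 without palbociclib and combination replicates 2 together (chosen after seeing the data), and Cdk6 was 0.016 on the linear scale and 0.52 without those 2 tumors. With single tumors left out B2m ran from -0.12 to 0.31, Cd274 from -0.28 to 0.34, Cdk4 from -0.17 to 0.032, Cdk6 from -0.47 to 0.54, Cxcl9 from -0.037 to 1.72 and Pdcd1 from -0.86 to 0.12. Genes under a few FPKM and 3 tumors per arm limit the precision, and the tables give no counts from which to set it per gene.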
